A study of Mus musculus with 6 samples.

Results

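Foxa1, its flanking genes Ttc6 and Mipol1, the related factor Foxa2 and the lung lineage factor Nkx2-1 are described here in embryonic mouse lungs with and without epithelial deletion of Dnmt1. These 5 genes were picked by symbol from the 14162 genes measured in every library, with the Dnmt1KO to WT difference of Foxa1 already known, so their differences between the groups are a description and carry no test. RNA was sequenced from lungs at E12.5. The group called Dnmt1KO, 3 libraries, carried the genotype ShhCre-Dnmt1KO, a knockout of the maintenance DNA methyltransferase gene Dnmt1 by Cre recombinase expressed from Shh regulatory sequence, which is active in the airway epithelium. The group called WT, also 3 libraries, came from wild-type littermates. Cre is in the label of the Dnmt1KO group alone, so an effect of the Cre allele and the loss of Dnmt1 cannot be told apart. No sorting is described, so mesenchyme, vessels and blood, which lie outside the airway epithelium, contribute RNA to both groups, and it is not stated that the replicates were separate embryos.

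FOXA1 and FOXA2 are forkhead transcription factors. They are called pioneer factors because they bind their sites in closed chromatin and make them accessible to other proteins. Both are made in the foregut endoderm and in the lung epithelium that grows from it, where they overlap in function during branching, and SHH from that epithelium signals to the surrounding mesenchyme. NKX2-1, a homeodomain factor, marks the lung field of the foregut from its start and is needed for lung epithelial identity, and it is also a factor of the thyroid. Ttc6 encodes a protein with tetratricopeptide repeats and Mipol1 a coiled-coil protein.

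In the GENCODE order of protein-coding genes on chromosome 12, Mipol1, Foxa1 and Ttc6 follow each other directly. Foxa1 is read from the minus strand and the other two from the plus strand, so Foxa1 and Ttc6 are read away from each other. Nkx2-1 is the 6th protein-coding gene from Foxa1 on the side of Mipol1, while Foxa2 lies on chromosome 2. DNMT1 copies methylation at CpG dinucleotides, so the 250 bases before the RefSeq starts of the 3 chromosome 12 members with a sequence are shown with every CpG in capitals, 5′ to 3′ on the strand of the gene. They come from the GRCm38.p6 assembly, at chr12:57546112-57546361 on the minus strand for Foxa1, chr12:57563865-57564114 on the plus strand for Ttc6 and chr12:56536909-56537158 on the minus strand for Nkx2-1.
Foxa1: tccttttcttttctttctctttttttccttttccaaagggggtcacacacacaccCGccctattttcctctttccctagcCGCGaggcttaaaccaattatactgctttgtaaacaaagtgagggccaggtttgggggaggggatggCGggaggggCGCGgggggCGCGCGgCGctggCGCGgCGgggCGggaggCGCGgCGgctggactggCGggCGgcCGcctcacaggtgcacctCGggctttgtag
Ttc6: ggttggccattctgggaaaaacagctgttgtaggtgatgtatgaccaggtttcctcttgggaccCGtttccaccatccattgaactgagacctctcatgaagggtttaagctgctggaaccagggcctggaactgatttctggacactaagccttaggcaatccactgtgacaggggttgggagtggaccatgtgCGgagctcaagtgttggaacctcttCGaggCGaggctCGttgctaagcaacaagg
Nkx2-1: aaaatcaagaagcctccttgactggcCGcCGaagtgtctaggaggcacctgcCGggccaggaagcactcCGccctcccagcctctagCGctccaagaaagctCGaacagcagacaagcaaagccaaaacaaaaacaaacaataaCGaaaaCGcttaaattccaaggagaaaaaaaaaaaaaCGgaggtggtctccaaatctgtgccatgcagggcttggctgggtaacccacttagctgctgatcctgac
The Foxa1 stretch held 21 CpGs, most of them near the start, against 5 for Ttc6 and 9 for Nkx2-1. RefSeq lists 3 starts for Foxa2, whose 250 bases held 6, 20 and 13.

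Windows from 250 bases before to 50 after a start allowed comparison with all 32841 such windows, whose median was 7 CpGs. The Foxa1 window held 26, more than 83.1% of windows, and the Ttc6 window 6, more than 43.6% of them. The Nkx2-1 window held 12 (60.4%), and the 3 Foxa2 windows held 12, 23 and 13 (60.4%, 78.5% and 62.1%). Both strands were searched for the forkhead motifs TGTTTAC and TATTTAC and for TNAAGTG, a core of NKX2 sites. The forkhead motifs differ by 1 base and cannot match the same bases. TGTTTAC was found once among the windows of these genes, as gtaaaca 141 bases before the Foxa1 start, and 3.65% of all windows held it. TATTTAC, held by 3.04% of all windows, was found in none of them. TNAAGTG was found once, as tcaagtg 49 bases before the Ttc6 start, and 11.5% of all windows held it. These are matches of letters, and no binding or methylation was measured here.

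Read totals recovered from the deposited values ran from 18192629 to 25597662 per library. Dnmt1 itself had 8388 to 8723 reads in Dnmt1KO and 10786 to 13466 in WT. Its deposited log2 values, scaled for library size, were 15.31 to 15.57 against 15.72 to 15.76, a difference of -0.31 ± 0.09 (SE). Both measures include cells outside the Cre lineage. Markers of the tissue were present in every library, with 2170 to 3826 reads of the epithelial adhesion gene Epcam, and all 16 mesenchyme markers were measured, the lowest at 60 reads. Dnmt1KO replicate 1 had 3 reads over 4 genes of the Y chromosome and the other libraries 4155 to 5207, so it differs in sex by this measure. All 5 genes described here are on autosomes, and an effect of sex on them was not tested. Over all genes, limma's test with Benjamini-Hochberg adjustment called 40 genes higher (0.282%) and 1 lower (0.00706%) in Dnmt1KO at an adjusted p under 0.05, together 0.29%.

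Foxa1 was lower in every Dnmt1KO lung than in any WT lung, and 1 Dnmt1KO library stood closer to WT than the others. It had 318, 355 and 884 reads in Dnmt1KO replicates 1, 2 and 3, whereas WT replicates 1, 2 and 3 had 1576, 1498 and 1513. The deposited log2 values, which are scaled for library size, were 10.80, 10.81 and 12.06 in Dnmt1KO and 12.62, 12.89 and 12.70 in WT. Dnmt1KO replicates 1 and 2 were thus at 26.1% and 26.4% of the WT mean and replicate 3 at 62.6%, whereas the WT libraries ran from 92.3% to 111%. The group means were 11.22 ± 0.73 for Dnmt1KO against 12.74 ± 0.14 for WT (SD, n = 3 each), a log2 difference of -1.51 ± 0.32 (SE), or 35.0% of the WT level. The groups did not overlap, as in 3.99% of all genes with Dnmt1KO below WT and 4.79% with Dnmt1KO above WT, and among the 5 genes Ttc6 was the only other without overlap. In unsorted lungs, fewer epithelial cells and less RNA per cell cannot be told apart from this value alone.

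Foxa2, the closest relative of Foxa1 in these cells, was nearer to its WT level. The Dnmt1KO libraries held 461, 600 and 885 reads of it and the WT libraries 1019, 952 and 931. On the log2 scale these were 11.33, 11.57 and 12.06 against 11.99, 12.23 and 12.002. Dnmt1KO replicates 1 and 2 lay below all WT libraries, and replicate 3 lay within the WT range at 99.2% of the WT mean. The mean log2 difference was -0.42 ± 0.18 (SE, n = 3 each), or 74.7% of WT. Leaving out Dnmt1KO replicate 1 made it -0.26, and leaving out replicate 3 of that group -0.62.

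Nkx2-1 had the most reads of the 5 genes in each library. They numbered 2586, 2252 and 3601 with the knockout and 4215, 3807 and 3937 without it. The log2 values were 13.82, 13.48 and 14.09 against 14.04, 14.23 and 14.08. Again Dnmt1KO replicates 1 and 2 were below WT and replicate 3 was inside the WT range, at 97.9% of the WT mean. The difference was -0.32 ± 0.15 on the log2 scale (SE, n = 3 each), or 79.9% of WT, and it was -0.16 without Dnmt1KO replicate 2.

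Ttc6 had a pattern like that of Foxa1, on whose far side from Mipol1 it starts. The Dnmt1KO lungs gave 75, 63 and 195 reads and the WT lungs 265, 256 and 342. Its log2 values of 8.72, 8.33 and 9.89 in Dnmt1KO all lay below the WT values of 10.05, 10.34 and 10.56, with replicate 3 again the highest of its group and close to the lowest WT library. The difference was -1.34 ± 0.36 (SE, n = 3 each), 39.5% of the WT level.

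Mipol1, the gene on the other side of Foxa1, overlapped with WT. Its reads numbered 133, 152 and 228 for Dnmt1KO against 179, 185 and 199 for WT, with log2 values of 9.54, 9.59 and 10.11 against 9.49, 9.87 and 9.78. The mean difference of 0.04 ± 0.20 (SE, n = 3 each) was smaller than the SD of either group, 0.31 in Dnmt1KO and 0.20 in WT. Its sign turned without Dnmt1KO replicate 3 (-0.15) or WT replicate 1 (-0.08), with quantile normalization (-0.05) and with sample weights (-0.07). Mipol1 and Ttc6 both overlap antisense transcripts in the annotation, as does Nkx2-1, and Mipol1 also overlaps the gene Prps1l3 on its own strand (-0.10 ± 0.08). Whether reads were counted by strand is not given in the sources used here, so reads from such partners cannot be told apart.

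**Figure D1:**
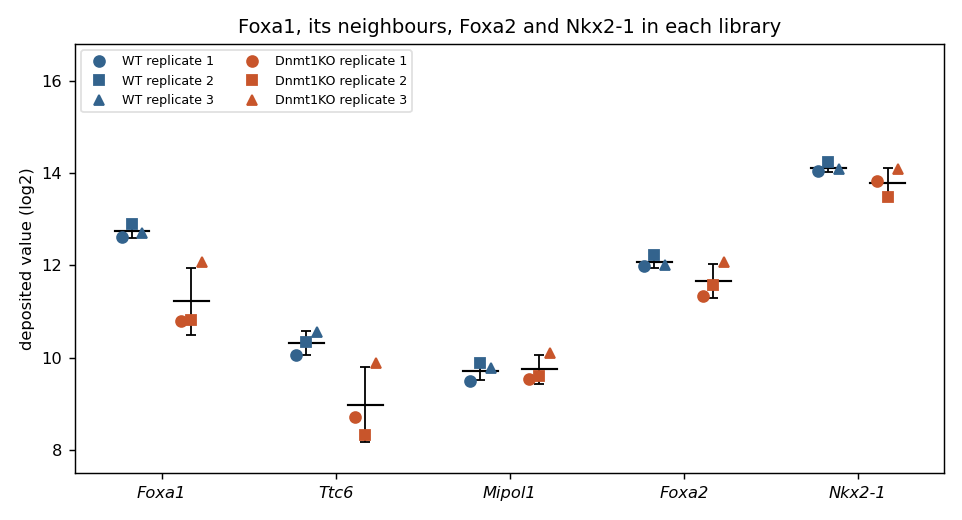
Deposited log2 value (vertical axis) of each gene in the 3 WT and 3 Dnmt1KO libraries, with 1 symbol per replicate, horizontal bars at group means and error bars of 1 SD. Foxa1 and Ttc6 have all Dnmt1KO points below all WT points, Dnmt1KO replicate 3 is the highest Dnmt1KO point for every gene, and Mipol1 overlaps between the groups.

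Of the 5 genes, the whole-table limma fit called none, with 3 at an unadjusted p under 0.05 (640 of 14162 genes), and voom on the recovered reads also called none. None was called under 14 of 15 alternatives. In the remaining one, which omitted Dnmt1KO replicate 3, the fit called 2 of the 5 lower, Foxa1 at a difference of -1.93 and Ttc6 at -1.79, where 0.12% of all genes were called lower. The genes were chosen on this contrast, and that library is the one nearest to WT for Foxa1, so nothing is read from any of these counts.

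Differences taken within a library do not depend on how libraries were scaled. Foxa1 minus Foxa2 was 0.63, 0.65 and 0.70 in WT replicates 1, 2 and 3, an SD of only 0.04, and -0.54, -0.76 and -0.0016 in Dnmt1KO. In reads, WT lungs had 1.55, 1.57 and 1.63 Foxa1 reads for each Foxa2 read, and Dnmt1KO lungs had 0.690, 0.592 and 0.999. The balance between these relatives was thus nearly constant among WT lungs and lower in each Dnmt1KO lung, replicate 3 included. Foxa1 minus Nkx2-1 gave the same picture, at -3.02, -2.66 and -2.03 in Dnmt1KO and between -1.42 and -1.35 in WT. Foxa2 minus Nkx2-1 overlapped between the groups, at -2.49, -1.91 and -2.02 in Dnmt1KO and -2.05, -1.999 and -2.08 in WT.

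The same comparison within the locus separated Mipol1 from the other pair. Foxa1 minus Ttc6 was 2.08, 2.49 and 2.18 in Dnmt1KO and 2.57, 2.55 and 2.14 in WT, so the groups overlapped. Foxa1 minus Mipol1 was 1.25, 1.22 and 1.95 in Dnmt1KO and 3.13, 3.01 and 2.92 in WT, with no overlap. Ttc6 minus Mipol1 did not overlap either, at -0.82, -1.26 and -0.23 against 0.56, 0.47 and 0.78. Mipol1 itself differed by 0.04 between the groups, so the pairs with it largely repeat the values of Foxa1 and Ttc6. All these differences come from the contrast that chose the genes and are descriptions, and no share over other gene pairs was computed.

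**Figure D2:**
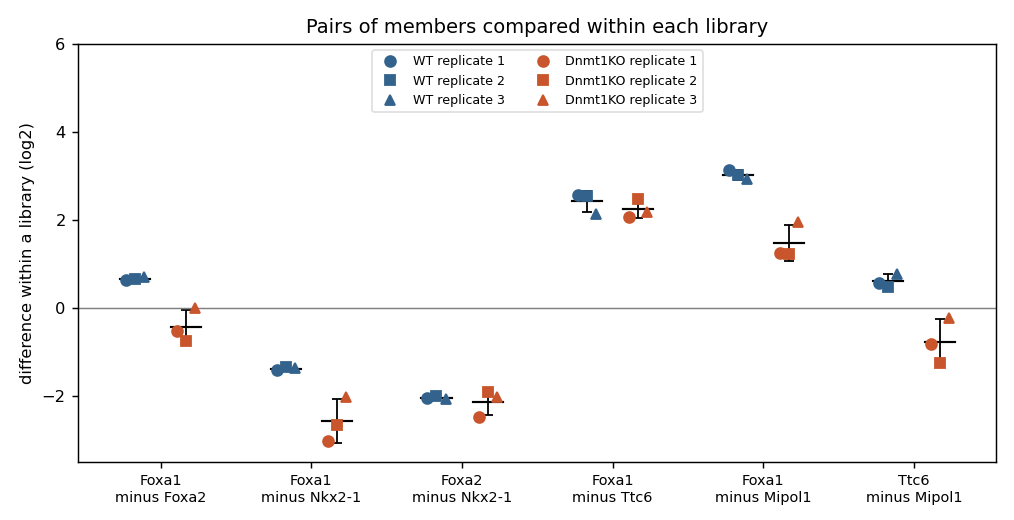
Log2 difference between the members of each pair within a library (vertical axis), for 3 WT and 3 Dnmt1KO libraries, with group means and error bars of 1 SD. Foxa1 minus Foxa2 lies between 0.63 and 0.70 in WT and at or below 0 in Dnmt1KO, while Foxa2 minus Nkx2-1 and Foxa1 minus Ttc6 overlap between the groups.

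Levels of different genes were compared as RPKM, here computed from recovered reads so that a level is scaled for merged GENCODE exon length and library size. In WT the order was Nkx2-1 at 60.9 ± 3.7, Foxa1 at 20.0 ± 1.7, Foxa2 at 17.7 ± 1.5, Ttc6 at 1.87 ± 0.33 and Mipol1 at 0.876 ± 0.113 (SD, n = 3). Foxa1 and Foxa2 overlapped in that order, as WT libraries ran from 18.5 to 21.9 for Foxa1 and from 16.797 to 19.5 for Foxa2, though Foxa1 was the higher in each library. In Dnmt1KO the order was Nkx2-1 at 49.9 ± 10.4, Foxa2 at 13.7 ± 3.6, Foxa1 at 7.73 ± 4.24, Mipol1 at 0.917 ± 0.211 and Ttc6 at 0.824 ± 0.493. Both close pairs had changed places in the means, but Foxa2 and Foxa1 overlapped across Dnmt1KO libraries (10.7 to 17.7 and 5.25 to 12.6), as did Mipol1 and Ttc6 (0.783 to 1.16 and 0.468 to 1.39). By RPKM Foxa2 was above Foxa1 in each Dnmt1KO library, whereas in Dnmt1KO replicate 3 Ttc6 was above Mipol1 (1.39 and 1.16). The lengths are of an annotation that may differ from the authors', which moves levels between genes but not a difference between groups.

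The rest of the neighbourhood on chromosome 12 had no gene past the test. Of 18 other genes listed there, 12 were measured, from Nfkbia beyond Nkx2-1 to Fbxo33 beyond Ttc6. By limma none was called in either direction, 1 had an unadjusted p under 0.05 and voom called none. The median log2 difference of the 12 was 0.0034, and between -0.019 and 0.048 with 1 library left out, against -5.9e-05 over all genes. On the outer side of Ttc6 the nearest measured gene of the list, the endothelial lectin gene Clec14a, differed by 0.12 ± 0.22. Next to Nkx2-1, Mbip, which encodes a kinase-binding protein, differed by -0.41 ± 0.19 (limma adjusted p = 0.9999). The gene on its other side, the homeobox gene Nkx2-9, was counted at 40, 27 and 9 reads in the Dnmt1KO libraries and at 7, 10 and 1 in the WT libraries, a difference of 2.37 ± 0.89 that did not pass (limma adjusted p = 0.898) and in which the groups overlapped. The other 9 lay between -0.11 and 0.13. Pax9, Slc25a21 and Sstr1 were not analysed here.

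**Figure D3:**
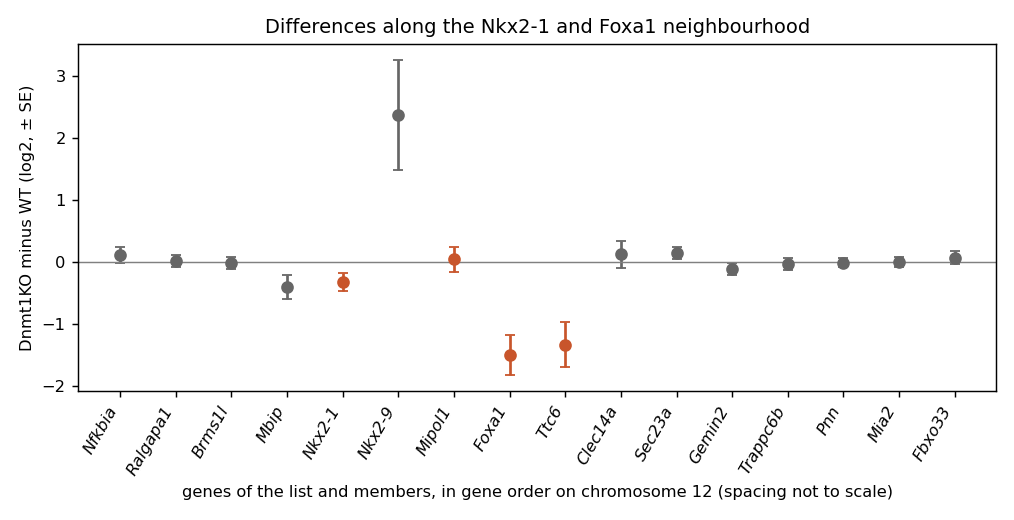
Log2 difference between Dnmt1KO and WT with its limma SE (vertical axis) for listed genes in gene order on chromosome 12, members in orange and other genes in grey, spacing not to scale. Foxa1 and Ttc6 lie at -1.51 and -1.34 beside Mipol1 at 0.04, and Nkx2-9, with 1 to 40 reads, lies at 2.37 with a wide error.

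Around Foxa2 on chromosome 2, 11 other listed genes were measured, with a median log2 difference of 0.10 and none past limma's test (2 at an unadjusted p under 0.05, none by voom). Thbd, the endothelial thrombomodulin gene, had the smallest p among them at 0.54 ± 0.13 (limma adjusted p = 0.289). The somatostatin receptor gene Sstr4, the next protein-coding gene to Foxa2, differed by 0.48 ± 0.20 (limma adjusted p = 0.9999). Both differences have the opposite sign to that of Foxa2.

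Among 25 other measured forkhead genes, none passed limma's test, 2 had an unadjusted p under 0.05 and voom called none. Their median log2 difference was -0.04, and between -0.10 and 0.03 with 1 library left out. Foxf1, a Hedgehog-responsive factor of the lung mesenchyme, had the smallest p at -0.38 ± 0.09 (limma adjusted p = 0.261). Foxf2, also of the mesenchyme, differed by -0.42 ± 0.18, Foxk2 by -0.18 ± 0.11, Foxo3 by 0.14 ± 0.13 and Foxm1, a factor of dividing cells, by -0.11 ± 0.10, each with a limma adjusted p of 0.9999. The remaining FOXA gene, Foxa3, had few reads, 33, 15 and 20 for Dnmt1KO against 39, 43 and 39 for WT, and its groups overlapped on the log2 scale (-0.68 ± 0.39, limma adjusted p = 0.9999).

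The members are set beside epithelial genes here as a description, since they were picked with the difference of Foxa1 known. Of 38 epithelial structure and adhesion genes, all measured, none passed limma's test and voom called none. By limma 7 had an unadjusted p under 0.05, 6 of them lower and 1 higher. Their median log2 difference over all 38 was -0.02, with 19 below and 19 above 0. Dnmt1KO lay wholly below WT for 6 and wholly above for 2, against 3.99% and 4.79% of all genes. The sign of this median was not stable, at -0.15 without Dnmt1KO replicate 3 and -0.09 without WT replicate 1 but 0.04, 0.07 and 0.10 without Dnmt1KO replicate 1, Dnmt1KO replicate 2 and WT replicate 2. Per library, their median stood -0.12, -0.28 and 0.23 from the WT mean in Dnmt1KO replicates 1, 2 and 3 and -0.20, 0.14 and 0.03 from it in the WT libraries. Dnmt1KO replicate 3, the library with the most Foxa1 of its group, was therefore also the highest of the 6 by this median. After subtracting that median, Foxa1 stood at -1.82, -1.65 and -0.90 from its WT mean in Dnmt1KO and between -0.06 and 0.09 in WT. Ttc6 stood at -1.48, -1.71 and -0.66, Foxa2 at -0.63, -0.23 and -0.24 and Nkx2-1 at -0.18, -0.37 and -0.26, against WT ranges of -0.12 to 0.22, -0.10 to 0.12 and -0.06 to 0.13. On this scale the groups overlapped for Mipol1 alone, and replicate 3 had no Foxa2 or Nkx2-1 value inside the WT range. Before the subtraction Foxa2 and Nkx2-1 did overlap, and the list median subtracted is not stable. No share of all genes without overlap was computed on this scale, so nothing is read from these values.

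The epithelial genes with the smallest p were the chloride channel gene Ano1 (-0.76 ± 0.13, limma adjusted p = 0.0649), the water channel gene Aqp4 (-1.16 ± 0.20), the cadherin gene Cdh16 (-1.41 ± 0.25) and the planar polarity gene Celsr1 (-0.64 ± 0.12, limma adjusted p = 0.113), none of which passed. Of 33 other measured transcription factor genes of lung and foregut endoderm, none passed (9 at an unadjusted p under 0.05, none by voom) and the median was 0.09, with 22 positive differences. That median was 0.14 without Dnmt1KO replicate 1 and -0.00028 with quantile normalization. The first among them were Irx1 (-0.96 ± 0.15, limma adjusted p = 0.0589), Id2, a factor of the distal tips (0.56 ± 0.10), Cebpa (0.96 ± 0.22) and Irx2 (-0.86 ± 0.25). Dnmt1KO lay wholly below WT for 4 of the 33 and wholly above for 3, against 3.99% and 4.79% of all genes. Without Dnmt1KO replicate 3, limma called 1 of the 33 higher and 3 lower, and 3 of the 38 epithelial genes lower. Over all 14162 genes, that setting called 39 higher and 17 lower (0.12%).

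Of 27 genes commonly linked to FOXA factors or NKX2-1 in lung epithelium, 18 were measured, and limma called 1 higher and none lower (11 at an unadjusted p under 0.05, none called by voom). Their median log2 difference was 0.40, with 14 of 18 positive, against a median of -5.9e-05 over all genes. Dnmt1KO lay wholly above WT for 6 of 18 and wholly below for 2, against 4.79% and 3.99% of all genes. The gene called higher was the surfactant gene Sftpa1 (1.91 ± 0.24, limma adjusted p = 0.0193), with read counts of 585, 364 and 411 for Dnmt1KO lungs and 138, 106 and 172 for WT lungs. It passed under 8 of 15 alternatives, with adjusted p from 0.0155 to 0.129, and failed when Dnmt1KO replicate 1 (0.0513) or either of WT replicates 2 (0.0628) and 3 (0.0642) was left out, and with the replicate block (0.0594), voom (0.0562), no trend or robust estimation (0.0840) or the lowest 25% of genes removed (0.129). The surfactant gene Sftpc (1.58 ± 0.25, limma adjusted p = 0.0585) did not pass. Those below 0 included Shh, the epithelial Hedgehog ligand (-0.98 ± 0.22, limma adjusted p = 0.213), and Hhip, which binds it (-0.84 ± 0.15, 0.0795). Cre is expressed from Shh regulatory sequence, and an effect of the Cre allele on Shh or on its response genes was not tested. The list median was 0.24 without Dnmt1KO replicate 1.

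The mesenchymal response to SHH was measured in 14 genes, of which limma called 1 lower and none higher, and voom called 1. By limma 7 had an unadjusted p under 0.05, 6 of them lower and 1 higher. Dnmt1KO lay wholly below WT for 5 of 14 and wholly above for 1, against 3.99% and 4.79% of all genes. Their summed levels were 17.37 to 17.49 in Dnmt1KO and 17.63 to 17.69 in WT. This list too was chosen with earlier results of these data known. Ptch1, the SHH receptor and target, fell by 0.63 ± 0.08 on the log2 scale (limma adjusted p = 0.0258, voom adjusted p = 0.0359). This call was lost when Dnmt1KO replicate 1 (0.174) or 2 (0.137) or WT replicate 2 (0.0822) or 3 (0.165) was left out, with the replicate block (0.0532), without trend and robust estimation (0.102) and with the lowest 25% of genes removed (0.138), over a range from 0.00683 to 0.174 in 15 alternatives. The others did not pass, among them the effector gene Gli1 (-0.33 ± 0.07, limma adjusted p = 0.187), with Foxf1 and Hhip, which are also on this list, as given above. The median of the 14 was -0.21, and -0.11 without WT replicate 1.

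**Figure D4:**
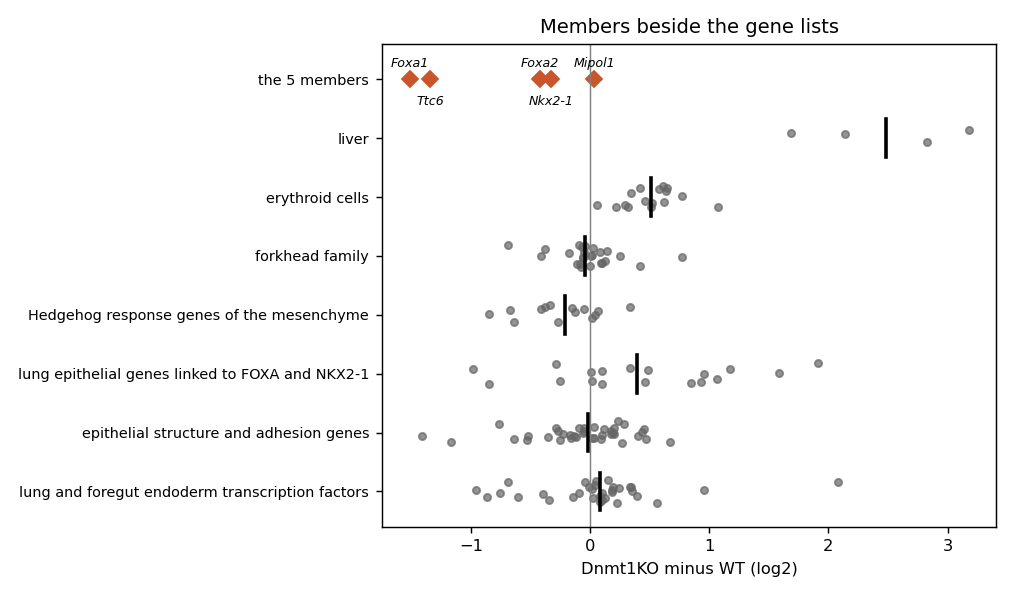
Log2 difference between Dnmt1KO and WT (horizontal axis) for the 5 members (orange diamonds) and for each measured gene of 7 lists (grey points, black bar at the list median, vertical jitter without meaning). Foxa1 and Ttc6 lie at -1.51 and -1.34, left of every forkhead gene, with Cdh16 of the epithelial list between them at -1.41. The genes linked to FOXA and NKX2-1 have a median of 0.40.

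Markers of other cell types differed between libraries as well, and their part in the values above was not tested. All 16 measured erythroid genes had positive differences, with a median of 0.51 and none past limma's test (3 at an unadjusted p under 0.05, none by voom). Omitting Dnmt1KO replicate 3 lowered that median to 0.25, and sample weights lowered it to 0.24. Per library, their median exceeded the WT mean by 0.36, 0.16 and 0.94 in Dnmt1KO replicates 1, 2 and 3 and by 0.44 in WT replicate 3, so the Dnmt1KO library with the most Foxa1 also had the most erythroid RNA. Their summed level was 17.68 to 18.43 in Dnmt1KO and 17.27 to 17.76 in WT on the log2 scale. The 4 measured liver genes, whose organ also expresses FOXA factors, had summed levels of 10.58 to 11.51 in Dnmt1KO and 8.30 to 9.13 in WT, with none past the test (4 at an unadjusted p under 0.05, none by voom) and a lowest count of 2 reads.

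Cardiac genes, 10 measured, were far higher in Dnmt1KO replicate 2, with a median at 2.90 from the WT mean against -0.20 and 0.87 in replicates 1 and 3 and summed levels of 12.92 to 15.92 in Dnmt1KO and 13.11 to 13.67 in WT. Thyroid genes, 4 measured, overlapped between groups, at 10.19 to 11.01 against 10.06 to 10.68. The median difference was 0.04 for 16 mesenchyme genes, 0.04 for 10 endothelium genes, 0.07 for 6 mesothelium genes, 0.03 for 11 macrophage genes and -0.05 for 12 genes of neurons and neural crest. Single libraries turned the sign of each. For neurons and neural crest the libraries stood far apart, with WT replicates 1 and 2 at 1.15 and -1.21 from the WT mean, and the median difference was 0.34 without the former and -0.63 without the latter. The endothelium median was -0.17 without WT replicate 2, the mesothelium median -0.14 without Dnmt1KO replicate 2, the macrophage median -0.09 without that library and the mesenchyme median -0.02 without Dnmt1KO replicate 1. In these 5 lists and the cardiac and thyroid lists limma and voom called no gene, and at an unadjusted p under 0.05 there were 1 mesenchyme gene, 2 mesothelium genes and 0 in the other lists. Summed levels overlapped between the groups in each of these 5 lists. No measured marker of any of these lists was at 0 reads in any library.

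The genes most like Foxa1 were ranked by Pearson's r of log2 values over the 6 libraries, among 11635 genes with a mean of at least 100 reads. The first 8 outside the members were B4galnt4 (0.989), Prpsap1 (0.988), the epithelial splicing regulator gene Esrp2 (0.987), the kinesin gene Kif12 (0.986), Nkain1 (0.986), the T-box gene Tbx1 (0.981), Tiparp (0.980) and Adcy7 (0.979). Ttc6, at 0.972, would have held place 10 in that order. Foxa2 (0.929) and Nkx2-1 (0.878) would have been at 67 and 168, and Mipol1 (0.375) and Epcam (0.316) far down. The measure takes the shape of a profile and not its size. Kif12 and Tbx1 differed between the groups by -1.53 ± 0.30 and -1.32 ± 0.29, close to the size of Foxa1, whereas Prpsap1 differed by -0.10 ± 0.07.

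Kif12 had log2 values of 8.95, 8.62 and 9.86 in Dnmt1KO and 10.41, 10.82 and 10.77 in WT, and Tbx1 had 9.56, 10.06 and 10.86 against 11.44, 11.67 and 11.34. As with Foxa1, Dnmt1KO replicate 3 was the highest of its group in both. For Foxa2 the first 4 were Surf6 (0.994), Ssx2ip (0.992), Ring1 (0.979) and Tiparp (0.977), and for Nkx2-1 they were Abhd16a (0.990), Slc25a10 (0.988), Gtf3c5 (0.982) and Rpusd3 (0.980). These 8 differed between the groups by -0.24 (Slc25a10) to -0.08 (Abhd16a). These are descriptions over 6 points that share library, depth and genotype, and the best of many genes reach a high r by selection.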

How the data were processed

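RNA-seq of 6 lung samples was split into groups by the genotype label. The authors deposited log2 values, 1 table per library, whose scale was read from the values since the header says only SIGNAL. STAR, limma and the build mm9 are named in the submitters' processing notes, without versions or roles, with counter, annotation and scaling not given in the sources used here. Raising 2 to each value gave whole reads plus an offset of 0.5 times a library constant, within 1e-06 reads for 100% of genes, and the totals of these reads are the depths given. The lowest gene total was 60 reads, so genes below it were not analysed here.

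Symbols, gene order and merged exon lengths came from GENCODE M21 (GRCm38), which named 13967 identifiers, and promoter sequences from RefSeq, found for 4 of the 5 genes. All 14162 genes were fitted with limma 3.58.1 under R 4.3.3, with genotype as the only term, trend and robust moderation, and Benjamini-Hochberg adjustment at 0.05. It was checked on simulated data in which a gene's spread followed its level alone and no library stood apart. The p-values of the fit reflect only spread among these samples, which may be technical.

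The members and gene lists were chosen with earlier results of these data known. Genes named were the members, Dnmt1, up to 4 per list and 6 forkhead genes by smallest p, the listed neighbours, and the 8, 4 and 4 genes most like Foxa1, Foxa2 and Nkx2-1. Epcam was added once its values had been seen. Alternatives were a replicate block, other scalings and offsets, moderation, sample weights, voom, removal of the 25% lowest genes and leaving out each library.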

Additional observations from a re-analysis of the deposited data

How the results depend on the processing

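With 1 library omitted at a time, Foxa1 took values from -1.93 to -1.30, Ttc6 from -1.79 to -1.01, Foxa2 from -0.62 to -0.26, Nkx2-1 from -0.47 to -0.16 and Mipol1 from -0.15 to 0.14, so Foxa2 and Nkx2-1 moved by over 1.5 times (without Dnmt1KO replicate 1 and replicate 2). Ttc6 gave no value without the 25% of genes with the lowest means, of which it is one. The number of members called lower was 0 to 2 on omitting 1 library, and of members called higher was 0 throughout. Over all genes, the 40 called higher became 26 with the replicate block, 24 with voom and 0 without the lowest 25% of genes (129 higher at an unadjusted p under 0.05), and 15 to 42 on omitting 1 library. The 1 called lower became 0 with the replicate block (306 lower at an unadjusted p under 0.05), 0 without the lowest 25% (179) and 0 without trend and robust estimation (198), 12 with sample weights, and 0 to 17 on omitting 1 library. The causes were not tested. The sample labels pair the groups only by replicate number. Deviations of same-numbered libraries correlated at -0.0027, -0.18 and 0.31, and those of differently numbered libraries at -0.37 to 0.38. The replicate block changed no member's call. Medians that moved or changed sign are given beside most lists. The liver median was 2.48 and became 1.74 with quantile normalization. Omitting 1 library put the cardiac median of 0.93 between 0.07 and 1.88 and the thyroid median of 0.43 between 0.23 and 0.65. Genes with few reads, such as Nkx2-9 and Foxa3, are limited by depth.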
